A study of Caenorhabditis elegans with 2 samples.

Results

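Chromatin immunoprecipitation followed by sequencing located 310 peaks on the X chromosome of Caenorhabditis elegans whose summits lay more than 200 bp from every annotated tRNA gene. They were taken from a base set of 2058 peaks, made of the 1627 peaks of the authors' conservative series list and 431 peaks of their other thresholded series list that overlapped none of these. Of the X peaks, 246 came from the conservative list and 64 from the other list. The material was whole L4 larvae at 50 h, synchronised by starvation at the L1 stage, of the strain OP351. These animals carry the integrated transgene wgIs351, in which nhr-42 is joined to TY1, EGFP and 3xFLAG tags, together with unc-119(+), in an unc-119(tm4063) background. An antibody against GFP was used, and both samples, 2 biological replicates, form a single group with no condition to compare. Precipitation from untagged animals was not analysed here, and the values therefore have no background of their own kind beside them. Whole animals were used, and a peak does not show in which tissue it arose.

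NHR-42 belongs to the nuclear hormone receptors, a family of ligand-regulated transcription factors that is greatly expanded in nematodes. In hermaphrodites, which have a pair of X chromosomes where males have a single one, the dosage compensation complex binds X and lowers its transcription. The complex is loaded at recruitment elements on X, many of which carry copies of a motif called MEX that is enriched on X, and then spreads along the chromosome. The gene xol-1 sits at the top of this pathway, and sdc-2 encodes the factor that brings the complex to X. The dosage compensation complex itself was not measured in these samples.

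The X peaks ranged from a few very strong peaks, mostly between genes and rich in the MEX core, to many weaker ones, among which promoters were the most frequent location. The MEX core was searched as the letters GCGCAGGG on both strands within 50 bp of each summit. It was chosen with earlier results of these data known, so its shares describe these peaks and are not an independent finding. The sequences below are the plus strand of build ce11, 101 bases centred on the summit, and are shown because they carry the contrast among the strongest X peaks. Capitals mark an exact core on either strand, or the core with the substitution C4A, where positions are counted from 1 at the 5′ end of the core. The mom-1 intron and the place upstream of xol-1 hold a pair of exact cores, the F20B6.9, nspc-17 and Y41G9A.17 sequences hold an exact core and a C4A form, the ins-39 promoter holds 1 exact core, and the last 3 hold neither form.
F20B6.9 upstream (chrX:4209238-4209338): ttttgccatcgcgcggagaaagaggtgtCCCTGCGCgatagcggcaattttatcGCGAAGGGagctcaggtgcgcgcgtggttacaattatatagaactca
nspc-17 promoter (chrX:14525841-14525941): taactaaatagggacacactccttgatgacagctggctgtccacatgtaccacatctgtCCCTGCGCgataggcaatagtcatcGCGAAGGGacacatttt
mom-1 intron (chrX:6296527-6296627): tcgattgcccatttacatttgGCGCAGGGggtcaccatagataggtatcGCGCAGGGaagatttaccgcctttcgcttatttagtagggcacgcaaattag
Y41G9A.17 intron (chrX:2997055-2997155): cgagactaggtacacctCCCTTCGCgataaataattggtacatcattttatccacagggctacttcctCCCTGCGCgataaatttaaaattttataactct
xol-1 upstream (chrX:8036368-8036468): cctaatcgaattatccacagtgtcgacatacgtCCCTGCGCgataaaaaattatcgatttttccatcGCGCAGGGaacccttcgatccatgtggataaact
ins-39 promoter (chrX:1345013-1345113): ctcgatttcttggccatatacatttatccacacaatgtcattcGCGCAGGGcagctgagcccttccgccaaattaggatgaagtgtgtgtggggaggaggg
serp-1.1 promoter (chrX:15841227-15841327): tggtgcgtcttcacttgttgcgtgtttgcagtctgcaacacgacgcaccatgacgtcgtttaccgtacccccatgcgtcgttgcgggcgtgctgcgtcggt
puf-9 promoter (chrX:5841233-5841333): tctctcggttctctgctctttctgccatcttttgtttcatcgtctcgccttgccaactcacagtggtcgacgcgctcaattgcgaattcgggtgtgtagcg
hsp-3 promoter (chrX:6092137-6092237): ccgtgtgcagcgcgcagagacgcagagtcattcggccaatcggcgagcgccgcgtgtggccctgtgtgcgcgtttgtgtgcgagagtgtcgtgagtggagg

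These letters were rare outside the strong X peaks. The exact core was present at 15 of the 310 X peaks (4.84%, exact Clopper-Pearson 95% interval 2.73 to 7.86%), with 17 matches in all. It was present at 2 of 1530 autosomal peaks away from tRNA genes (0.131%), both on III, and at 0 of 94 X peaks at tRNA genes, which allows a share of up to 3.85%. Of 18512 ranked X peaks away from tRNA genes that did not reach the authors' threshold, 7 held it (0.0378%). Windows of the same length placed every 1000 bp along X held it in 9 of 17699 cases (0.0509%). All intervals cover counting error only, and these shares are descriptions with no test, since peaks of 1 experiment are not replicates of a condition.

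The 20 strongest X peaks of the conservative list that overlapped a thresholded peak in each replicate are described here as a group. Their signal value, the authors' own measure of peak strength with no stated unit, ran from 361 to 669 with a median of 502. In the ranked list of replicate 1 the same places had values of 168 to 316 (median 241), and in replicate 2 of 165 to 356 (median 252). The next X peak stood at 337, so the order is continuous across the choice of 20. Of these 20 peaks, 9 held the exact core (45%, 23.1 to 68.5%), against 6 of the other 290 X peaks (2.07%). With each replicate's own thresholded list, the 20 strongest X peaks held the core in 9 cases in replicate 1 and 10 cases in replicate 2. The remaining X peaks of those lists held it in 6 of 98 and 4 of 74 cases.

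**Figure D1:**
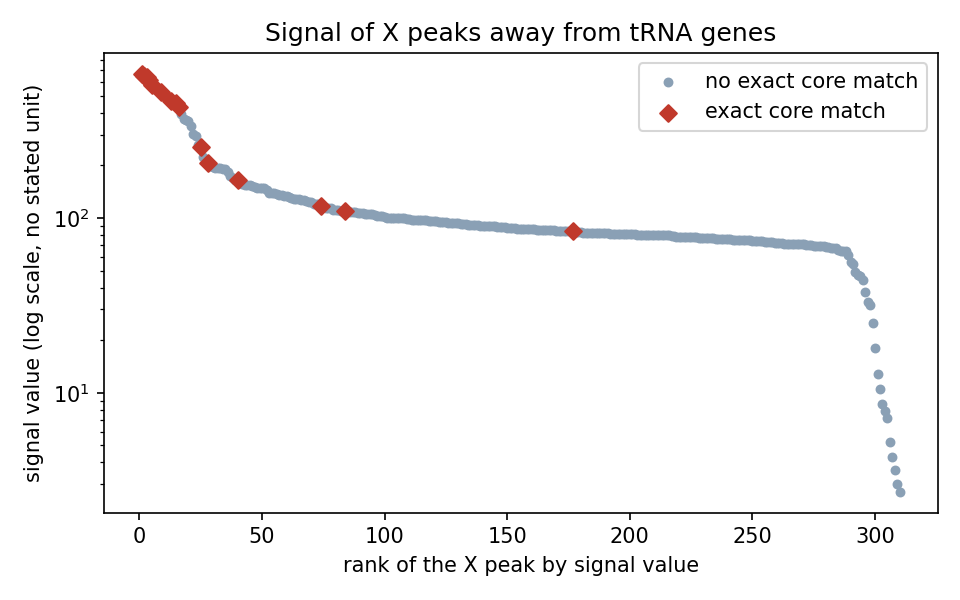
Signal value (log scale, no stated unit) of each of the 310 X peaks against its rank, with red diamonds for the 15 peaks that hold an exact MEX core within 50 bp of the summit. Diamonds crowd at the top of the range, from 669 downwards, and the weakest of them has a signal value of 84.0.

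The X peaks were ordered by signal value and cut into 4 groups of 77 or 78, and the core was concentrated in the strongest group. It was found at 13 of 78 peaks with signal values of 114 to 669 (16.7%, 9.18 to 26.8%), at 1 of 78 in the second group, at 1 of 77 in the third and at 0 of 77 in the weakest. Among autosomal peaks the strongest group of the same kind, with values from 116 to 1343, held it in 1 of 383 cases (0.261%, up to 1.45%). X peaks with the core had a median signal value of 453 (84.0 to 669), with medians of 209 in replicate 1 and 260 in replicate 2. Those without it had a median of 86.0, with 44.7 and 45.2 in the replicates. The ranges overlapped, since X peaks without an exact core reached 563.

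**Figure D2:**
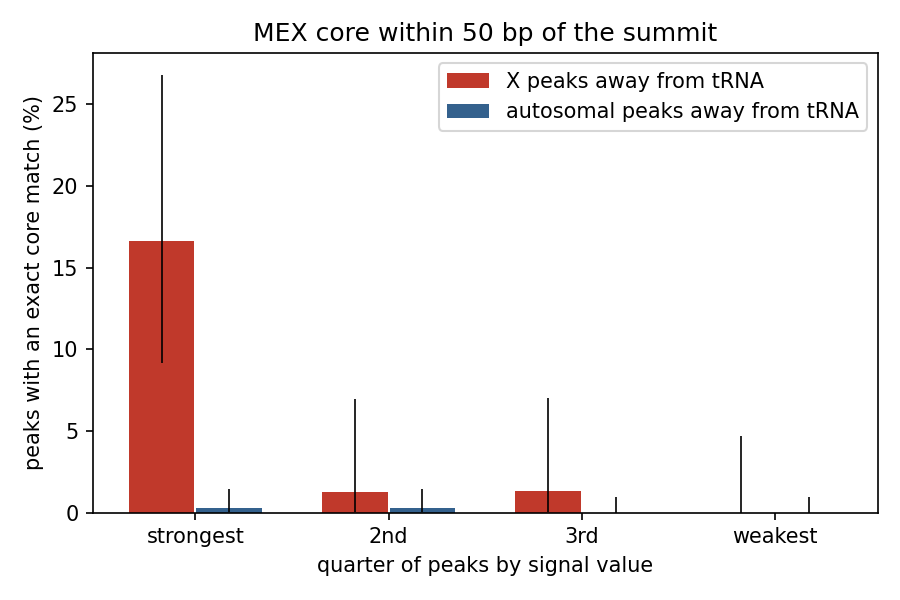
Share of peaks with an exact MEX core within 50 bp of the summit, in 4 groups by signal value, for the 310 X peaks and 1530 autosomal peaks away from tRNA genes. Lines are exact 95% intervals, and the share is 16.7% in the strongest X group and 0.261% in the strongest autosomal group.

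Most of the strong X peaks without an exact core held a close variant. Allowing 1 mismatch, 17 of the 20 strongest had a match within 50 bp, and 51 of all 310 X peaks did (16.5%), against 6.99% of the autosomal peaks and 1.92% of the ranked X peaks below the threshold. Among the X peaks the most frequent substitution was C4A, with 9 matches in the 20 strongest and 5 in the rest, and counting it was a choice made after seeing the data. It was not the most frequent at ranked X peaks below the threshold, where it had 20 matches and C2A and G7A had 29 each. The core or its C4A form was present at 14 of the 20 strongest peaks (70.0%, 45.7 to 88.1%), at 11 of the other 290 (3.79%), at 5 of 1530 autosomal peaks (0.327%) and at 27 of 18512 ranked X peaks below the threshold (0.146%). Clusters of these matches were counted in a wider window, which like the C4A form was chosen after seeing the data. The counts therefore describe these peaks and give no independent support. Within 150 bp of the summit, 8 of the 20 held 2 or more matches, whereas 0 of the other 290 did, which allows up to 1.26%. None of 1530 autosomal peaks had such a cluster either, which allows up to 0.241%, and 1 of 18512 ranked X peaks below the threshold did.

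**Figure D3:**
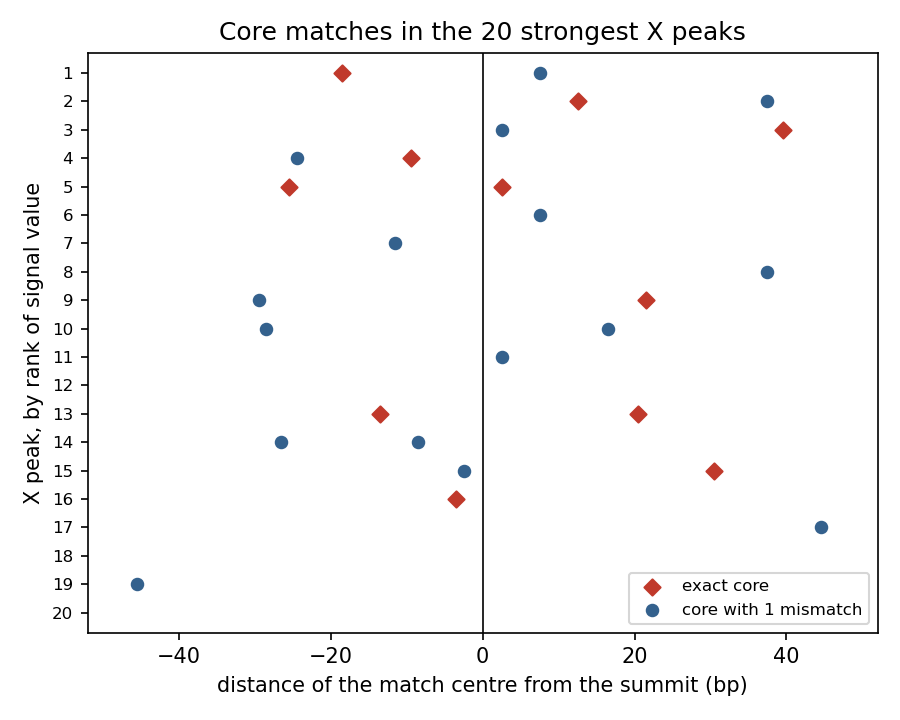
Distance in bp of each match from the summit, for exact cores (red diamonds) and cores with 1 mismatch (blue circles), in the 20 strongest X peaks ordered by signal value. Matches lie on both sides of the summit, and 3 of the 20 peaks have none within 50 bp.

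Seen from the motif, X carried 81 exact cores, or 4.57 per Mb, against 2.06 to 3.34 per Mb on the autosomes. On X, 23 of the 81 (28.4%) lay within 150 bp of the summit of a peak away from tRNA genes. On III the same was true of 5 of 46, and on I, II, IV and V of 0 of 31, 49, 43 and 64. Most cores on X were therefore not within 150 bp of such a summit, although 49 of the 81 lay in a ranked peak of some strength.

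The strongest X peak, at chrX:4209121-4209423, had a signal value of 669, with 316 in replicate 1 and 338 in replicate 2. Its summit was intergenic, 1803 bp upstream of F20B6.9. A second X peak, with a value of 223, lay 602 bp from it. The second strongest X peak, 710 bp upstream of nspc-17, a gene of a nematode-specific peptide family, had values of 291 and 356 in the replicates. Intergenic peaks nearest to W02H3.3 (replicate signal values of 283 and 342) and to gtr-1 (316 and 291) followed.

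In the intron of mom-1, whose product is related to Porcupine and acts in Wnt secretion, the signal value was 581, with 274 and 270 in the replicates. Another intronic summit, in Y41G9A.17, stood at 529, with 219 and 299. The only exonic summit among the 20 lay in pks-1, a polyketide synthase gene, at 453, with 172 and 260. The promoter of ins-39, an insulin-like peptide gene, had 433, with 209 and 211. The replicates differed by less than 1.5 times at 19 of the 20 places, with the ratio of replicate 1 to replicate 2 from 0.661 to 1.43 and a median of 0.969.

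The peak upstream of xol-1 is the X peak closest to a tRNA gene, at 267 bp. It spans chrX:8036266-8036571, its summit lay 4895 bp upstream of the 5′ end of xol-1 (WBGene00006962) in intergenic sequence, and its signal value was 467, with 219 in replicate 1 and 271 in replicate 2. On the other side of the distance rule, the nearest X peak left out lay 140 bp from a tRNA gene with a value of 165. Only 5 of the 310 X peaks lay within 1000 bp of a tRNA gene.

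Strong peaks with no match within 50 bp, 1 mismatch included, were also present. The peak 295 bp upstream of serp-1.1 had a signal value of 482, with 286 and 201 in the replicates, and a GC content of 59.4% around its summit, the highest of the 20. The peak 309 bp upstream of puf-9, which encodes a Pumilio-family RNA-binding protein, stood at 361, with 199 and 165. An intergenic peak near F19H6.5 had 370, with 188 and 168. Replicate 1 gave the higher value at all 3 of these places, whereas it did so at 7 of the 20 as a whole. A peak near hlh-29, at 459, differed from these 3 in holding matches with 1 mismatch, a C4A form among them. It lay in sequence present in 2 copies 1145 bp apart. The other copy had a peak of 134 with the same matches. Because of the 2 copies, reads of these places may not be assigned to 1 copy with certainty.

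The 20 strong peaks were spread along the chromosome. At least 1 lay in 16 of the 18 bins of 1 Mb, and neighbours were 0.215 to 1.63 Mb apart with a median of 0.855 Mb. All 310 X peaks together numbered 8 to 30 per bin, with a median gap of 30990 bp between neighbouring summits. The middle of X, taken as 33.3% of its length, held 27.1% of them (22.2 to 32.4%) and 30.7% of the ranked X peaks below the threshold.

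X differed from the autosomes in the share of peaks with high signal values and not at the centre of the range. The highest value was autosomal. The median signal value was 87.1 for the 310 X peaks (2.72 to 669) and 87.8 for the autosomal peaks (2.07 to 1343). Values above 200 were found at similar shares, 9.03% on X and 8.30% on the autosomes. Above 300 the shares were 7.10% (4.50 to 10.5%) and 3.46% (2.61 to 4.51%), with intervals that barely overlapped. Values above 400 were found at 16 X peaks (5.16%, 2.98 to 8.25%) and at 23 autosomal peaks (1.5%, 0.955 to 2.25%). Of the 20 strongest peaks away from tRNA genes in the base set, 7 lay on X (35%, 15.4 to 59.2%). Of the 50 strongest 17 did (34%, 21.2 to 48.8%), and of the 500 strongest 82 (16.4%). X makes up 17.7% of the genome and held 16.8% of all 1840 such peaks (15.2 to 18.6%), or 17.5 per Mb against 18.5 per Mb on the autosomes. The autosomal density is 15.5 per Mb without the last 2 Mb of II, which alone hold 280 of these peaks.

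The authors' threshold was passed by 1.54% of all peaks ranked for the series, and by 246 of 18869 ranked X peaks away from tRNA genes (1.30%). In replicate 1 it was passed by 1.37% of all ranked peaks and 118 of 10580 on X away from tRNA genes (1.12%). In replicate 2 the figures were 0.955% and 94 of 13585 (0.692%). The threshold chose the peaks, so nothing is read from these rates.

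Agreement between the replicates' own lists was limited for X peaks, as for the autosomes. A thresholded peak was present in replicate 1 at 112 of the 310 places (36.1%), in replicate 2 at 88 (28.4%), in both at 58 (18.7%, 14.5 to 23.5%) and in neither at 168 (54.2%). On the autosomes 20.7% were present in both and 50.6% in neither. Most of the X peaks in both lists were strong: they made up 53 of the 78 in the strongest of the 4 groups and 5 of the other 232. In the longer ranked lists, 303 of the X peaks had a counterpart in both replicates, and the value was higher in replicate 1 at 142 of them. Spearman's rho between the replicates was 0.379 over these 303 peaks, 0.602 over the 20 strongest and 0.237 over the rest. Pearson's r of the log2 values was 0.730, 0.626 and 0.452 in the same order. These are descriptions across peaks that share their libraries. The 20 were chosen by signal value and by calls in both replicates, so the correlations of the groups are not read against each other.

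**Figure D4:**
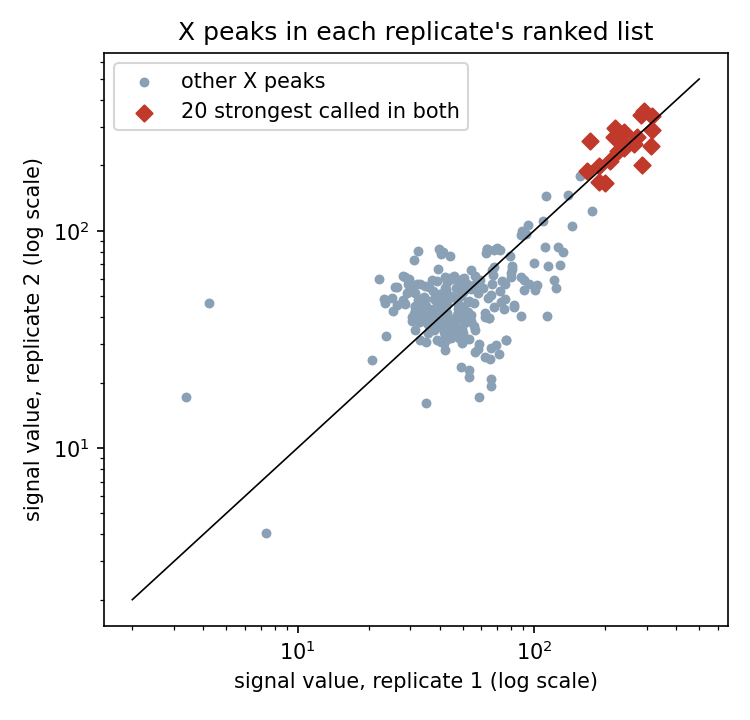
Signal value of each X peak in the ranked list of replicate 1 (horizontal) and replicate 2 (vertical), both on log scales, with the 20 strongest peaks called in both replicates as red diamonds and a line of equal values. The diamonds lie between 165 and 356 in both replicates. The other peaks have rho 0.237 and Pearson's r of log2 values 0.452.

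Away from the strongest 20, X peaks were most often at promoters. Summits were assigned to a promoter if they fell between 1000 bp before and 200 bp after the start of a protein-coding transcript, and otherwise to an exon, an intron, another gene or intergenic sequence. By this rule 130 of the 310 X peaks were at promoters (41.9%, 36.4 to 47.6%), 20 in exons (6.45%), 51 in introns (16.5%), 14 in other genes (4.52%) and 95 between genes (30.6%, 25.6 to 36.1%). Among the 20 strongest, 5 were at promoters and 12 between genes (60.0%, 36.1 to 80.9%), whereas among the other 290, 125 (43.1%) and 83 (28.6%) were. In each replicate's own list the 20 strongest X peaks were intergenic in 11 and 14 cases, and promoters in 6 and 3.

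Compared with autosomal peaks, X peaks were more often intergenic (30.6 against 16.7%) and less often exonic (6.45 against 15.9%). The intervals did not overlap, but they cover counting error only and no test was run. Ranked peaks below the threshold differed in the same direction for intergenic sequence, with 23.6% on X and 15.9% on the autosomes, while their exonic shares were both 27.5%. The median distance to the nearest protein-coding 5′ end was 1096.5 bp for the X peaks, 2554 bp for the 20 strongest and 699 bp for autosomal peaks. For ranked X peaks below the threshold it was 1523 bp, farther than for the X peaks as a whole.

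**Figure D5:**
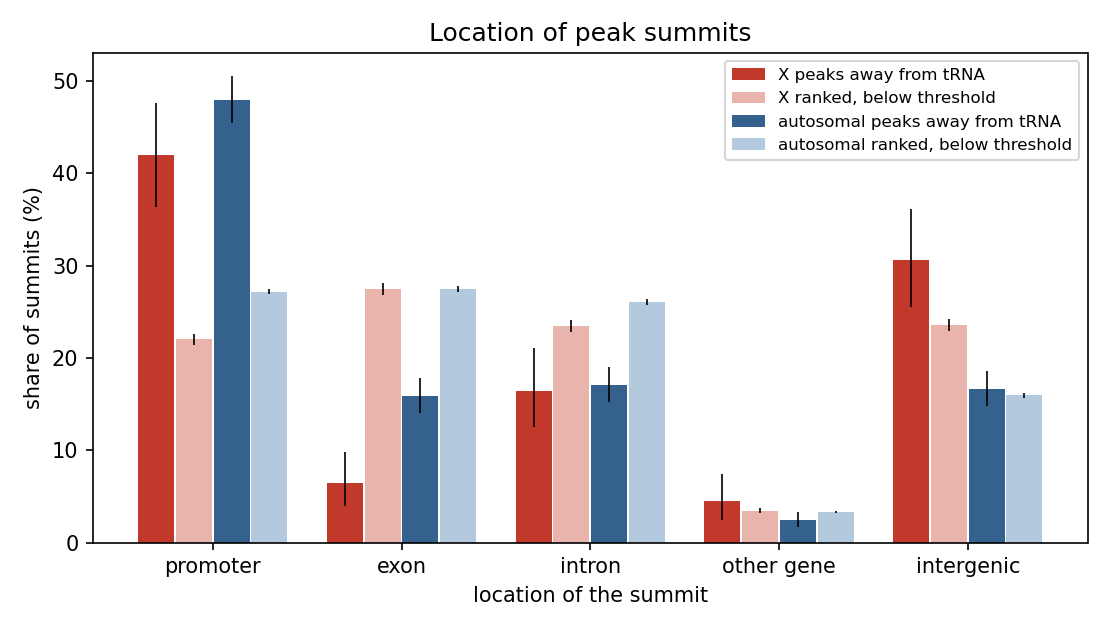
Share of summits at each kind of location for X and autosomal peaks away from tRNA genes and for ranked peaks below the threshold, with exact 95% intervals. Promoters hold 41.9% of X peaks and 22% of the ranked X peaks below the threshold, and intergenic sequence holds 30.6% of X peaks and 16.7% of autosomal peaks.

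Summit sequence on X was rich in G and C. The median GC content was 49.5% in the 101-bp window, 35.1% in flanks centred 500 bp away and 39.6% at ranked X peaks below the threshold, and autosomal peaks had 47.5%. Promoter summits on X had a median of 51.5% and intergenic ones 46.5%. Some repeated sequence, meaning any stretch of 24 bases present in 2 or more copies in the genome, was found around 49 of the X summits (15.8%). This was close to the 16.4% of ranked X peaks below the threshold. The share was 24.8% at autosomal peaks and 97.9% at X peaks at tRNA genes.

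For each other motif the shares are given at X peaks, at ranked X peaks below the threshold and in the windows along X, with the autosomal peaks after them. The hormone receptor half-site AGGTCA, on either strand, was present at 2.58% of X peaks, 2.99% of ranked X peaks below the threshold and 2.86% of the windows along X, and at 2.48% of autosomal peaks. The GATA site TGATAA was present at 9.03, 8.86 and 10.1%, and at 6.54% of autosomal peaks. The E-box CACGTG was present at 3.55, 1.76 and 1.26%, and at 4.64% of autosomal peaks. The GA repeat GAGAGAGA was found at 2.26, 0.897 and 0.525%, with 3.14% on the autosomes, and TTTTTTTT at 3.55, 8.24 and 12%, with 3.99% on the autosomes. At every motif of this paragraph the X and autosomal peaks had overlapping intervals. The letters CTGCGTCTC were present at 12 X peaks (3.87%), 0.303% of ranked X peaks and 0.181% of windows, but also at 5.10% of autosomal peaks. The B box GTTCGAATC, a part of the internal promoter of tRNA genes, was at 0 of 310 X peaks, against 6.38% of X peaks at tRNA genes, 0.0756% of ranked X peaks, 0.0848% of windows and 0.0654% of autosomal peaks.

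The promoter peaks fell at 136 of 2131 X-linked protein-coding genes, counting those whose window held a ranked summit of any strength (6.38%). The share was 6.73% over all chromosomes and 6.79% on the autosomes. The X peaks at promoters of named genes below the strongest 20 were led by hsp-3 (WBGene00002007), which encodes an endoplasmic reticulum Hsp70 chaperone. Its summit lay 63 bp upstream, with a signal value of 304, and 176 and 124 in the replicates. The peak 477 bp upstream of epn-1, an epsin of the endocytic machinery, had 262, with 145 and 105. Upstream of rpl-11.2, a large-subunit ribosomal protein gene, the values were 207, 133 and 79.6, and upstream of ftt-2, a 14-3-3 gene, they were 195, 92.4 and 96.5. The peak 307 bp upstream of atf-6, a transcription factor of the unfolded protein response, had 148, with 80.1 and 61.2, and was called in replicate 1 only. Of these, epn-1, ftt-2 and atf-6 were named after their values were seen. Other promoter peaks lay between them in strength, such as that of ucr-2.2 (198). Replicate 1 gave the higher value at 4 of these 5 promoters, against 142 of the 303 X peaks with both values.

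Bound promoters were counted in gene families with X-linked members. With 8 to 28 genes per list, counts of 0 or 1 are near the 6.73% of all genes tested, and nothing about those families is read from them. Of 28 collagen genes, 12 genes for acetylcholine receptors and ligand-gated channels, 8 potassium channel genes, 15 chemoreceptor genes and 13 genes of lipid metabolism and detoxification on X with a ranked summit, none had an X peak at the promoter. Among 23 neuropeptide genes 1 did, ins-39, and among 15 homeobox genes 1 did, ceh-39. Among 19 nuclear hormone receptor genes 4 did (autosomes 10 of 192). These were nhr-35 (109, with 45.1 and 59.7 in the replicates), nhr-40 (86.2, with 58.7 and 29.9), nhr-48 (77.0, with 35.7 and 39.8) and nhr-17 (69.3, with 32.8 and 38.0). None was called in both replicates: nhr-35 was called in replicate 2 only, nhr-40 in replicate 1 only, and nhr-48 and nhr-17 in neither. In other lists 2 of 4 chaperone genes were bound, hsp-3 and dnj-14 (155), against 14 of 43 on the autosomes. Of 12 F-box genes 2 were, fbxb-58 (506, summit 999 bp upstream) and fbxa-190 (109), against 5 of 236. Of 3 vacuolar ATPase genes 1 was, vha-12 (108), against 3 of 16. Of 2 ribosomal protein genes rpl-11.2 was bound, against 33 of 77. Of 3 histone genes his-24 (101), a linker histone, was bound, against 15 of 33. With 2 to 12 genes per list, these are counts and not tests.

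Genes of the X-counting and dosage compensation pathway were examined singly. The peak 467 bp upstream of sdc-2 (WBGene00004746) had a signal value of 155, with 70.1 in replicate 1 and 83.4 in replicate 2, and no core. The peak 177 bp upstream of ceh-39, an X signal element that represses xol-1, had 81.1, with 44.1 and 36.5. The ceh-39 peak was near the median of all X peaks and was called in neither replicate's own list, whereas the sdc-2 peak was called in both. The other X signal elements matched by name lay farther from any peak of the base set, fox-1 57136 bp and sex-1 12650 bp away, and sdc-1 lay 15799 bp away.

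Of the X-linked heterochronic genes, let-7 had a peak inside its annotated transcript, with a signal value of 76.5 and 35.1 and 44.8 in the replicates, and another 179 bp outside it, with 87.5 and 27.8 and 61.9. Neither let-7 peak was called in either replicate's own list. The microRNA let-7 times larval development. In introns of lin-14, which encodes a nuclear factor that specifies early larval fates, lay 2 X peaks, neither called in either replicate's own list. The stronger had a signal value of 70.8, with 51.1 in replicate 2 and no counterpart in replicate 1, and the other had 44.4, with 34.1 and 41.6. The genes hbl-1 and mir-84 were 10028 and 2352 bp from the nearest base-set peak. The 5 X-linked vitellogenin genes, which encode yolk proteins made in adult hermaphrodites, were 15361 to 61480 bp from the nearest base-set peak. The transgene's own genes, nhr-42 and unc-119, lie on V and III.

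Annotated non-coding RNA genes of other kinds were counted near X peaks. There was no comparison set, so nothing about any class is read from these counts. The broad class annotated as ncRNA was the largest, with 58 X peaks within 200 bp of 51 of its 2520 genes on X, and 3 X peaks lay that near 2 of 178 pseudogenes. Within 200 bp of a summit were 3 of 33 snoRNA genes, C53B7.8 (signal value 112), D2021.6 (88.7) and K09E9.5 (77.8), and 1 of 3 snRNA genes, M163.13 (99.5). The peak at C53B7.8 was called in both replicates' own lists and that at D2021.6 in replicate 1 only. Those at K09E9.5 and M163.13 were called in neither. Of 74 microRNA genes on X, 2 lay that near, let-7 and mir-54. The peak 186 bp from mir-54 had 156, with 63.2 in replicate 1 and 82.5 in replicate 2. Of 38 lincRNA genes 3 lay that near, and of 7 antisense RNA genes none.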

How the data were processed

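Chromatin from whole L4 larvae, sonicated to 200 to 800 bp, was precipitated through the GFP tag in 2 biological replicates of 1 group, per the labels. On build ce11, 8 peak lists were deposited, a thresholded and a ranked list per replicate and 2 of each for the series. The deposited score scales the irreproducible discovery rate (IDR) and stops at 1000; thresholded lists start at 830, which is an IDR of 0.01. A −log10 IDR is deposited in the ranked lists too. The signal value per peak is the authors' own, with no stated unit. Per the descriptions beside the files, the thresholded lists also derive from a further file that the ranked lists do not use. For peak caller and aligner the sources used here give no name. The lists hold no read counts, so depth is unknown, and intervals (exact Clopper-Pearson, 95%) cover counting error only.

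Genes came from Ensembl release 115, whose chromosome names and lengths match ce11, with RefSeq symbols where Ensembl gave only an identifier. Sequences are from the RefSeq genome of the same assembly. The nearest gene is the one with the nearest protein-coding 5′ end. Replicate signal values come from each replicate's ranked list, and lists were compared by overlap of at least 1 bp. Neighbouring X peaks can share a counterpart, and 18 shared both counterparts with another. Copies were counted with 24-mers within 75 bp of the summit. Genes named are those at the 20 strongest X peaks in both replicates, non-coding genes within 200 bp, up to 4 bound genes per list and every X-linked gene of the short lists. Others (epn-1, ftt-2, atf-6) were named after their values were seen. The 310 peaks, the 8 motifs and the 21 gene lists were chosen with earlier results of these data known, the MEX core among them. The letters TATCCACA, the C4A form, the window of 150 bp and the group of autosomal ranked peaks were added after seeing the data. No test was run. The steps were tested on simulated data. Alternatives covered the lists, signal, distance, merging, repeats, windows and each replicate's own list. The scripts ran in Python 3.11.15 (pandas 2.3.3, numpy 2.4.6, scipy 1.17.1) and figures in matplotlib 3.10.9.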

Additional observations from a re-analysis of the deposited data

Results flagged for a closer look

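The ranked series list holds 66 peaks past the authors' threshold that are missing from the conservative list, and 11 of these lie on X away from tRNA genes. They are data outside the 310 peaks described above. The strongest, at chrX:15810942-15811197 near Y7A5A.7, has a signal value of 3332, with 1583 in replicate 1 and 1873 in replicate 2, far above the highest value of 669 among the 310. The 24-mers around its summit have a median genomic copy number of 47. The next has 839 (404 and 454 in the replicates, 16 copies) near R57.2, followed by 450 (207 and 268) and 424 (179 and 258), and the other 7 have 42.8 to 157. All 11 have repeated sequence around the summit, 10 are intergenic, and 0 hold the MEX core. Why they are missing from the thresholded list was not tested.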

How the results depend on the processing

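No paired analysis was possible because the samples form 1 group and no result comes from a test. Over 11 results, 70 alternative values stayed close to the reported one (inside its interval, or within 1.5 times for a count) and 31 moved. With the peaks above the median signal value of their own list the X peaks numbered 149, 38.3% were in both replicates, the median signal value was 115.03, the share with the MEX core was 9.40% and bound genes numbered 72. With the conservative list alone, 23.6% were in both replicates and the median was 94.2. Leaving out the end of II, the X share was 19.9%. The promoter share was 31.3% with a window of 500 bp upstream to 100 bp downstream and 50.3% with 2000 to 200 bp, and the intergenic share 37.1 and 23.9%. Repeated sequence was 10.6% with 36-mers, GC 47.3% with a window of 100 bp to either side, and the core share 16.5% with 1 mismatch. Chosen after seeing the data, the core or its C4A form gave 8.06% within 50 bp and 9.35% within 150 bp, and TATCCACA gave 1.94%. With each replicate's own list, the ranges were 94 to 118 X peaks, an X share of 15.1 to 15.9%, promoters 36.2 to 50.8%, a median signal of 70.3 to 72.1, a core share of 12.7 to 14.9% and 35 to 61 genes. The share between genes was 30.5 to 41.5% and repeated sequence 11.9 to 14.9%. The share of peaks in the middle of X stayed within its interval under all 8 alternatives run. The causes were not tested.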

Other observations

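A further sequence accompanied the strong X peaks. The letters TATCCACA, on either strand and noticed after seeing the data, were present within 50 bp of the summit at 5 of the 20 strongest X peaks, at 1 of the other 290, at 2 of 1530 autosomal peaks, at 44 of 18512 ranked X peaks below the threshold (0.238%) and at 0.254% of windows along X. The sequence upstream of xol-1 holds it together with a pair of exact cores, and those of Y41G9A.17 and ins-39 hold it with 1 core each.

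At the lower end, 12 of the 310 X peaks had a series signal value under 30, down to 2.72, with scores past the threshold. The peak with 2.72 lay in an intron of F09A5.3 beside mir-54, and its counterparts in the ranked replicate lists had 63.2 and 82.5, which were also the counterparts of its neighbour with 156.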
